A study of Mus musculus with 2 samples.

Results

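The genes described here are the heat-shock proteins and co-chaperones: 36 genes named by symbol, all 36 of which were found among the 31053 genes of the count tables. They were chosen by name, with no use of measured values. They were sorted by general knowledge of their roles: 12 as mainly induced by stress, 19 as mainly constitutive and 5 as restricted to certain tissues. This split was assigned and not measured, and a gene called constitutive here may also respond to stress. The set is named for the cytosol, but Hspa9, Hspd1 and Hspe1 encode mitochondrial chaperones, Hspa13 a microsome-associated Hsp70, and Hsf1 and Hsf2 transcription factors.

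The measurements were made in 2 libraries of single mouse lung cells captured in droplets, 1 labelled p47phox-KI (KI) and 1 labelled wild type (WT). Both carry the strain label C57BL/6 and the disease label acute lung injury, so the injury is shared and there is no uninjured library. p47phox, encoded by Ncf1, is a cytosolic subunit of the phagocyte NADPH oxidase. The labels give neither the construction of the KI allele nor the agent of injury, and they give no number, sex or age of the animals behind each library. Lungs of both groups were digested in warm collagenase at 2 mg/ml for 1 h, stained for CD45.2 (a leukocyte antigen) and sorted through a gate the labels do not state. With 1 library per group no difference could be tested. All intervals below are exact 95% intervals that cover counting error only, and a ratio whose interval leaves out 0 compares these libraries, not the genotypes.

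Heat-shock proteins hold unfolded proteins and return them to a folded state. Hsp70 proteins bind exposed stretches of a client under control of J proteins, which deliver clients, and of exchange factors (Hsp110 and BAG proteins), which release them; Hsp90 and its co-chaperones act later, on kinases and steroid receptors among others, while small heat-shock proteins hold clients without using ATP. Under heat, oxidants or tissue disruption, heat-shock factor 1 binds heat-shock elements, repeats of GAA and TTC, and switches on the inducible members within minutes.

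The inducible Hsp70 copies Hspa1a and Hspa1b lead the results described below. They lie head to tail on the minus strand of mouse chromosome 17, Hspa1a at chr17:34969190-34972156 and Hspa1b at chr17:34956436-34959238 (GRCm38, GENCODE M21), both protein coding. Their transcripts share 58.8% of the 50-base windows of Hspa1a, but 0 of the 451 windows in its last 500 bases. Reads from the 3' end, which this assay counts, therefore lie in sequence that differs between the copies when they fall in those last 500 bases. The promoter windows of Hspa1a and Hspa1b are shown because these copies lead the results. Those of Hsph1, Chordc1 and Hspe1 are shown as examples that hold the 13-letter heat-shock motif. Hspd1 and Dnajb6 hold it too and are not shown. Of the genes with this motif, Dnajb6 had log2 ratios of KI over WT below 0 in all 5 classes compared below. The others had ratios above 0 in all 5, however small. Of all genes measured in each class, 18.6% were above 0 in all 5 and 6.88% below. Whether the motif had a part in these signs was not tested. Each runs 5' to 3' over 300 bases, 250 before the annotated start and 50 after it (RefSeq, GRCm38.p6), with matches to GAANNTTC or TTCNNGAA in capitals.
Hspa1a, chr17:34972107-34972406, minus strand: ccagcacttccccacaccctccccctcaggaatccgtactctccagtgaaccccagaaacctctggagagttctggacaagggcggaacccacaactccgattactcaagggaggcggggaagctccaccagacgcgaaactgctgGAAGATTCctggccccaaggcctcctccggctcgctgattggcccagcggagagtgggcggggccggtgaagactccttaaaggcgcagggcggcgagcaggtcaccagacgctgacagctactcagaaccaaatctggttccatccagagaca
Hspa1b, chr17:34959189-34959488, minus strand: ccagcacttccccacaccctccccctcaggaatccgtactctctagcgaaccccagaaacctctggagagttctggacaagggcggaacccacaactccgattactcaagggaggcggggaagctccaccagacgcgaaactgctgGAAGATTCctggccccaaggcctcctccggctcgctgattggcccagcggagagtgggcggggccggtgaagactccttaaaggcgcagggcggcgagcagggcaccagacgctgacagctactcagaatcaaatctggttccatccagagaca
Hsph1, chr5:149636266-149636565, minus strand: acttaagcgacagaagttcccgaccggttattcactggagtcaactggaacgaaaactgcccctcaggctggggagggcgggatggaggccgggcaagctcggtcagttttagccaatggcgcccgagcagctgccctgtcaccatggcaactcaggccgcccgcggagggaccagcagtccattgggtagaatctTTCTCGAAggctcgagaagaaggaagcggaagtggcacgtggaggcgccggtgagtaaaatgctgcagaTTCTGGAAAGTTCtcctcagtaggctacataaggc
Chordc1, chr9:18292017-18292316, plus strand: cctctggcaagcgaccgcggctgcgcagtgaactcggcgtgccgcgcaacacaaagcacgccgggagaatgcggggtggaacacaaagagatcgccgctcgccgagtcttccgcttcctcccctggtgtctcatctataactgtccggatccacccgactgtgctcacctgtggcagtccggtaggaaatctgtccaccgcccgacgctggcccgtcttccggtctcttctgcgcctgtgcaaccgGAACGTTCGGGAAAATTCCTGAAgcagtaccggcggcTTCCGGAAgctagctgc
Hspe1, chr1:55087898-55088197, plus strand: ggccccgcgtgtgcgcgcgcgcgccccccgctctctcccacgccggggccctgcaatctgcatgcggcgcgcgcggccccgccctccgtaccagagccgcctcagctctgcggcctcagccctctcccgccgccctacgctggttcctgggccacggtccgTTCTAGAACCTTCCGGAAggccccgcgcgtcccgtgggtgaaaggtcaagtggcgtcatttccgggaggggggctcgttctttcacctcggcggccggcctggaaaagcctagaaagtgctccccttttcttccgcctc

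The Hspa1a and Hspa1b windows differ at 4 of 300 bases and hold the same 8-letter match, whose first base is at position -104 when the start base is 0. Promoter windows were found for 28 of the 36 genes. Either 8-letter form, each of which reads the same on both strands, was present in 14 of 28 (50%), against 17% of 27025 annotated genes. It was present in 9 of 11 inducible genes (81.8%), 4 of 13 constitutive genes (30.8%) and 1 of 4 tissue-restricted genes (25%). The longer forms GAANNTTCNNGAA and TTCNNGAANNTTC, which contain overlapping 8-letter matches and were searched on both strands, were present in 5 of 28 (17.9%), against 0.662% of all genes. Inducible genes had 2 of 11 with a longer form (18.2%), constitutive genes 3 of 13 (23.1%) and tissue-restricted genes 0 of 4. The matches of the constitutive genes Hspd1 and Hspe1 are the same bases read on opposite strands. That stretch counts for both genes, here and in the 8-letter counts, so the groups are not ranked by these shares. These counts describe letters in a window and not binding.

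The KI library held 9120 barcodes with 43445797 UMIs (unique molecular identifiers, 1 per captured transcript) and the WT library 10473 barcodes with 43376713 UMIs. Barcodes with at least 200 genes and at most 10% mitochondrial UMIs were kept: 7161 in KI, with a median of 3927 UMIs, and 8417 in WT, with a median of 3423 UMIs. The libraries share 17 kept barcode sequences. Clusters were formed with the 36 genes left out and named from marker genes. A class was compared where both libraries had 100 cells or more, which gave 5: endothelial (3868 cells in KI and 4718 in WT), fibroblast (915 and 1143), smooth muscle or pericyte (568 and 534), type 2 alveolar (623 and 508) and type 1 alveolar (319 and 553), and 9.45% of KI cells and 7.25% of WT cells stayed unnamed. The lung label fits these classes, while leukocytes made up 1.84% of KI cells and 3.24% of WT cells. The libraries also stand apart in transcripts outside the set: 56.8% of KI leukocytes and 0.733% of WT leukocytes held a Y-linked UMI, against at most 0.642% in any of the 5 classes of either library. Haemoglobin UMIs were present in 17.3% of KI cells and 1.72% of WT cells. Their part in the results was not tested. Ncf1, the gene named in the KI label, had 188 UMIs in KI and 206 in WT, which checks nothing here because the change to the gene is not stated.

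Hspa1a and Hspa1b, the stress-inducible cytosolic Hsp70 copies, were higher in the KI library in endothelium and fibroblasts, higher by summed UMIs in type 1 cells, and close between libraries in smooth muscle or pericytes, where the sign depended on the processing (-0.15 to 0.17). In endothelium the copies together had 1338 CPM (counts per 1000000 UMIs of the class) in KI and 714 CPM in WT, a log2 ratio of 0.91 (0.88 to 0.94). In fibroblasts they had 922 CPM in KI and 593 CPM in WT, a log2 ratio of 0.64 (0.56 to 0.71). Type 2 alveolar cells, which make surfactant, had 4601 CPM in KI and 3819 CPM in WT, a log2 ratio of 0.27 (0.25 to 0.29). Smooth muscle or pericytes had 2654 CPM in KI and 2464 CPM in WT, a log2 ratio of 0.11 (0.05 to 0.17). Type 1 alveolar cells, which line the gas exchange surface, had 1323 CPM in KI and 723 CPM in WT, a log2 ratio of 0.87 (0.79 to 0.95). That last value rests on few cells: the top 10% of cells held 95.6% of the copies' UMIs in KI and 89.8% in WT, and a single KI cell held 580 of the 2630 UMIs. With the mean of per-cell CPM in place of summed UMIs the type 1 ratio was -0.28, and with a stricter cell filter (at least 500 genes and at most 5% mitochondrial UMIs) it was -0.98.

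**Figure D1:**
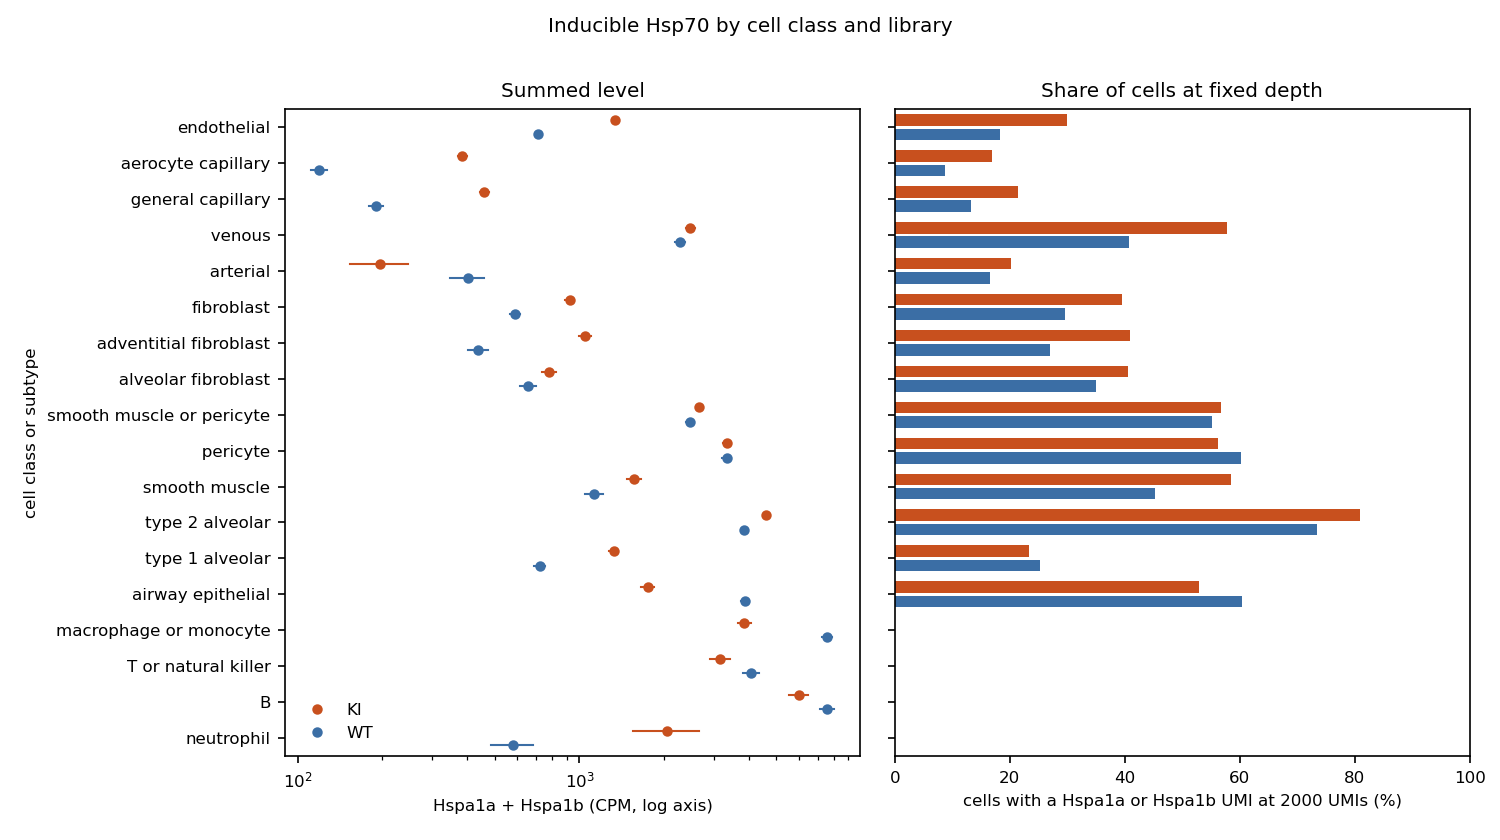
Left, summed level of Hspa1a and Hspa1b (CPM, log axis) with 95% counting intervals; right, share of cells with a UMI of either copy at 2000 UMIs per cell (%), for cell classes and subtypes, KI above WT in each pair; shares at fixed depth were not computed for leukocyte types. Levels in the KI library lie above those in WT in aerocyte and general capillary endothelium (384 against 119 CPM, 460 against 190 CPM) and coincide in pericytes.

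Both copies contributed. In endothelium Hspa1a had 818 CPM in KI and 483 CPM in WT (log2 ratio 0.76, 0.72 to 0.80), and Hspa1b had 520 CPM in KI and 231 CPM in WT (1.17, 1.12 to 1.22). The ratio was larger for Hspa1b, by intervals that do not overlap. In fibroblasts Hspa1a had 592 CPM in KI and 382 CPM in WT (0.63), and Hspa1b 329 CPM in KI and 210 CPM in WT (0.65). In smooth muscle or pericytes Hspa1a had 1771 CPM in KI and 1711 CPM in WT (0.05), and Hspa1b 883 CPM in KI and 753 CPM in WT (0.23). The interval for Hspa1a there, -0.02 to 0.12, includes 0. Type 2 cells had, of Hspa1a, 2852 CPM in KI and 2502 CPM in WT (0.19), and Hspa1b 1749 CPM in KI and 1318 CPM in WT (0.41). In type 1 cells Hspa1a had 758 CPM in KI and 477 CPM in WT (0.67), and Hspa1b 565 CPM in KI and 247 CPM in WT (1.20).

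Among the named endothelial subtypes the ratio was largest in the capillaries. Aerocytes, the thin capillary cells of gas exchange, had 384 CPM in KI and 119 CPM in WT, a log2 ratio of 1.68 (1.57 to 1.79). General capillary cells had 460 CPM in KI and 190 CPM in WT, a log2 ratio of 1.27 (1.18 to 1.38). Venous cells, the highest of the named endothelial subtypes in both libraries, had 2473 CPM in KI and 2269 CPM in WT, a log2 ratio of 0.12 (0.05 to 0.20). Arterial cells had 196 CPM in KI and 401 CPM in WT, from 74 UMIs in KI and 205 in WT, and this lower value became a log2 ratio of 1.38 under the stricter cell filter, where the arterial name fell on 312 KI and 420 WT cells. Over all processing alternatives the log2 ratio ranged over 1.44 to 1.71 in aerocytes, 0.82 to 1.27 in general capillary cells and -0.18 to 0.64 in venous cells.

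Across the 9 endothelial clusters the copies were higher in KI in 8, the exception being the arterial cluster. A cluster led by Tmem252, Grrp1 and Adamts9 held 9.80% of KI and 11.6% of WT endothelial cells but 47.1% of the copies' endothelial UMIs in KI and 51.7% in WT. That cluster had 6700 CPM in KI and 3026 CPM in WT, a log2 ratio of 1.15 (1.10 to 1.19). Immediate-early genes, which respond to stimuli that include cell isolation, were also higher there as a sum. They made up 3.11% of UMIs in KI and 2.00% in WT (0.64, 0.62 to 0.66). In the general capillary cluster, where the copies had a ratio of 1.27, the immediate-early sum was 0.837% in KI and 0.847% in WT (-0.02). The aerocyte clusters had ratios of 1.91, 0.77 and 1.60 for the copies, and of 0.05, 0.03 and 0.41 for the immediate-early sum. Venous cells were at 0.12 for the copies and 0.10 for the sum, and the cluster led by Gm26870 at 0.77 and 0.20. In the arterial cluster the copies were at -1.03 and the sum at 0.25. A smaller cluster led by the cell cycle genes Cenpf and Top2a (24 KI and 14 WT cells) had 1682 CPM of the copies in KI and 572 CPM in WT (1.56). Its immediate-early sum was at 0.37.

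**Figure D2:**
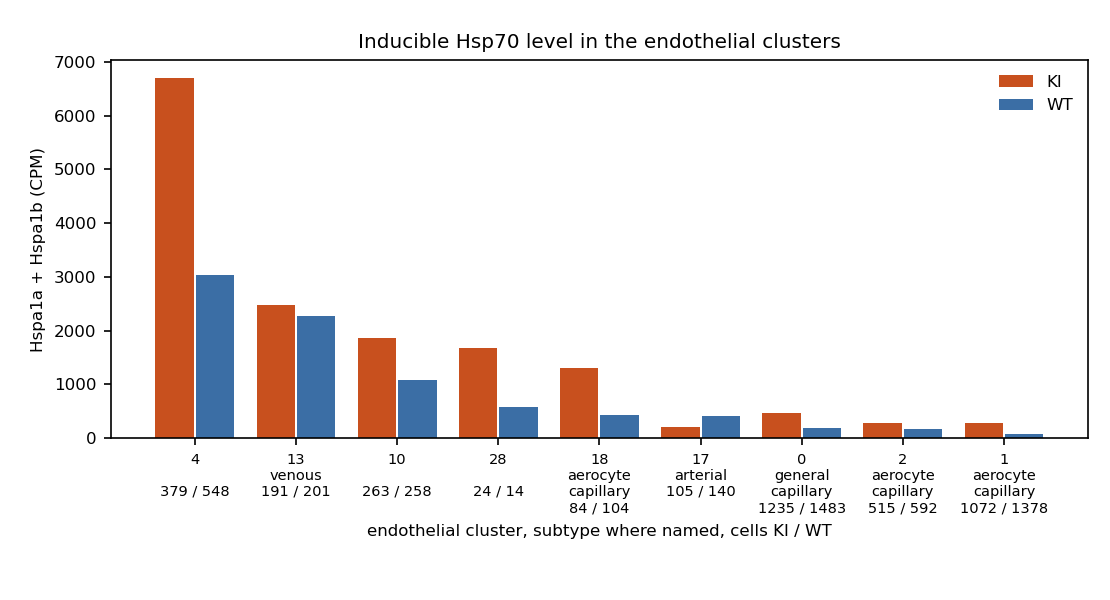
Summed level of Hspa1a and Hspa1b (CPM, bars from 0) in each endothelial cluster of the KI and WT libraries, ordered by the WT level, with cell numbers under each pair. The cluster with the tallest bars, 6700 CPM in KI and 3026 CPM in WT, has no subtype name.

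Outside endothelium, adventitial fibroblasts, which surround vessels and airways, had 1046 CPM of the copies in KI and 437 CPM in WT, a log2 ratio of 1.26 (1.12 to 1.40). Alveolar fibroblasts had 780 CPM in KI and 657 CPM in WT, a log2 ratio of 0.25 (0.12 to 0.38), which ranged over -0.33 to 0.78 over the processing alternatives. Pericytes, which wrap capillaries, had 3339 CPM in KI and 3333 CPM in WT. Smooth muscle had 1559 CPM in KI and 1126 CPM in WT, a log2 ratio of 0.47 (0.33 to 0.61), which ranged over -0.39 to 0.88 over the processing alternatives. Summed levels in the small classes were lower in KI: airway epithelium (50 KI and 67 WT cells) had 1749 CPM in KI and 3862 CPM in WT, and leukocytes (132 and 273 cells) had 3888 CPM in KI and 4918 CPM in WT. Within leukocytes, macrophages or monocytes together were lower in KI, with 0.385% of UMIs against 0.754% in WT, but their clusters went opposite ways. The cluster led by C1qb (19 KI and 31 WT cells) had 0.452% in KI and 1.05% in WT. The cluster led by Chil3 (24 KI and 18 WT cells) had 0.321% in KI and 0.163% in WT. Neutrophils, from 57 UMIs in KI and 138 in WT, were higher, with 0.204% in KI and 0.0579% in WT. Neutrophils were 12 of the 132 KI and 105 of the 273 WT leukocytes. The share of leukocytes with a UMI of the copies was also higher in KI, at 76.0% against 61.8% in WT at 2000 UMIs, so no direction is read for leukocytes. The leukocyte value stands beside the Y-linked difference given above. In the order of levels, type 2 cells, leukocytes and smooth muscle or pericytes stood above the endothelial, type 1 and fibroblast classes in both libraries. The endothelial and type 1 levels were neighbours in both libraries, at 1338 and 1323 CPM in KI and 714 and 723 CPM in WT. The type 1 class also held endothelial RNA: Cdh5, the endothelial cadherin, was at 27.8% of its endothelial level there in KI and 19.4% in WT. Its part in the type 1 values was not tested.

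The share of cells with the copies also differed. In endothelium 38.9% of KI cells (37.4% to 40.5%) and 24.8% of WT cells (23.6% to 26.0%) had a UMI of Hspa1a or Hspa1b. KI cells were deeper, with a median of 4264.5 UMIs against 3685 in WT. When each cell was reduced to 2000 UMIs, leaving out 636 KI and 901 WT cells below that depth, the shares were 29.9% in KI and 18.4% in WT. At this depth the shares were 17.0% in KI and 8.66% in WT for aerocytes, 21.4% and 13.2% for general capillary cells, 57.8% and 40.8% for venous cells, and 39.4% and 29.7% for fibroblasts. Venous cells, whose summed levels were close, thus still had a larger share of positive cells in KI. Shares at 2000 UMIs were 56.8% in KI and 55.2% in WT for smooth muscle or pericytes, 80.9% and 73.3% for type 2 cells, and 23.3% and 25.2% for type 1 cells. The type 2 shares leave out 94 of 623 KI cells but 8 of 508 WT cells, so they compare unlike parts of the libraries. In the type 1 class the share thus ran against the summed level, and no direction is read from it. No class is expected to lack these genes, so free RNA was read from Sftpc, a surfactant gene of type 2 cells. Sftpc was in 87.7% of KI and 79.0% of WT endothelial cells. Its endothelial level was 0.542% of its type 2 level in KI and 0.261% in WT. In the named subtypes its level was closer between libraries. It was 0.309% in KI and 0.242% in WT for aerocytes and 0.294% and 0.231% for general capillary cells. Venous cells had 0.265% and 0.211%, and arterial cells 0.382% and 0.286%. The endothelial level of the Hspa1 copies was 29.1% of their type 2 level in KI and 18.7% in WT. The copies are not restricted to type 2 cells, so their free RNA can come from any class and Sftpc cannot measure it. The part of free RNA in the endothelial values was not tested.

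The copies were unevenly spread over cells. The top 10% of endothelial cells held 84.4% of their UMIs in KI and 94.0% in WT, whereas for Hspa8 the top 10% held 41.5% in KI and 39.9% in WT. Endothelial cells with at least 10 UMIs of the copies were 13.3% of cells in KI and 6.10% in WT. Among endothelial cells with at least 2000 UMIs, those with a UMI of the copies also differed from those without in other members. Both sets of cells were pooled over the endothelial clusters of a library. Hsph1 had a log2 ratio of positive over negative cells of 3.05 in KI and 2.95 in WT, and Dnajb1 of 2.06 in KI and 1.96 in WT. Hsp90aa1 had 1.17 in KI and 0.75 in WT, Hspd1 0.87 in each library, and Dnaja1 0.77 in KI and 0.55 in WT. The immediate-early gene Fos, outside the set, had 2.37 in KI and 2.50 in WT. Fkbp4 (-0.10 in KI, -0.38 in WT) and Hspa12b (-0.07 in KI, -0.27 in WT) did not accompany them. Positive cells were deeper than negative ones, with medians of 5517 against 4463 UMIs in KI and 4852 against 4073 UMIs in WT. The clusters also differ in their share of positive cells. The parts of depth and of cluster in these ratios were not tested.

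Among the other Hsp70 genes, Hspa8, the constitutive cytosolic Hsc70, was close between libraries in most classes. It had 648 CPM in KI and 621 CPM in WT endothelium (log2 ratio 0.06), 661 and 687 CPM in fibroblasts (-0.05), and 699 and 676 CPM in smooth muscle or pericytes (0.05). Type 2 cells had 1516 CPM in KI and 1409 CPM in WT (0.11). In type 1 cells it was lower in KI, with 849 CPM against 1079 CPM in WT (-0.35, -0.43 to -0.26). Hspa12b, a distant Hsp70 relative known from endothelial cells and angiogenesis, had its highest level in endothelium in both libraries, with 114 CPM in KI and 76.8 CPM in WT (0.57, 0.48 to 0.67). General capillary cells had 139 CPM in KI and 74.7 CPM in WT (0.89, 0.73 to 1.06), while aerocytes had 108 CPM in KI and 91.9 CPM in WT (0.23, 0.08 to 0.38). Its UMIs were in 36.6% of KI and 25.2% of WT endothelial cells, and in 19.8% and 14.1% at 2000 UMIs. Type 2 cells had 8.25 CPM in KI and 2.17 CPM of it in WT (1.92, 1.10 to 2.84), from 66 UMIs in KI and 15 in WT. That is 7.23% of its endothelial level in KI and 2.83% in WT, beside 5.34% and 3.60% for Cdh5 in the same cells.

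Hspa2, an Hsp70 best known from spermatogenesis, had its highest level in smooth muscle or pericytes, with 81.7 CPM in KI and 56.8 CPM in WT (0.52, 0.14 to 0.91). Pericytes had 85.3 CPM in KI and 45.8 CPM in WT (0.90), and smooth muscle 76.0 CPM in KI and 73.8 CPM in WT (0.04). In endothelium it had 6.61 CPM in KI and 3.84 CPM in WT (0.78, 0.36 to 1.21), from 125 UMIs in KI and 76 in WT. Hspa14, a ribosome-associated Hsp70, had ratios above 0 in all 5 classes, 0.08 to 0.74. Mitochondrial Hspa9 was at -0.50 in smooth muscle or pericytes and -0.17 to 0.06 elsewhere, and Hspa13 at -0.21 to 0.20.

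Of the Hsp110 genes, which exchange nucleotide on Hsp70, Hsph1 differed most. It had 82.9 CPM in KI and 48.2 CPM in WT endothelium (0.78, 0.67 to 0.90), 92.3 and 45.9 CPM in smooth muscle or pericytes (1.01, 0.61 to 1.43) and 81.0 and 43.4 CPM in type 1 cells (0.90, 0.55 to 1.25). Fibroblasts had 56.6 CPM in KI and 56.4 CPM in WT, with a ratio of 0.01. Hspa4l, its relative, had ratios of -0.51 to 0.49 and constitutive Hspa4 of -0.40 to 0.02, with no common direction in the family.

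Hsp90aa1, the inducible cytosolic Hsp90, was lower in KI outside type 2 cells: 329 CPM in KI and 376 CPM in WT endothelium (-0.19, -0.24 to -0.14), 424 and 656 CPM in fibroblasts (-0.63, -0.72 to -0.54) and 506 and 648 CPM in smooth muscle or pericytes (-0.36, -0.48 to -0.23). Type 1 cells had 1052 CPM in KI and 1162 CPM in WT (-0.14), and type 2 cells 1870 CPM in KI and 1626 CPM in WT (0.20, 0.17 to 0.24). At 2000 UMIs, 35.1% of KI and 44.3% of WT endothelial cells had a Hsp90aa1 UMI, the reverse of the Hspa1 copies. The constitutive Hsp90ab1 had 1102 CPM in KI and 1304 CPM in WT endothelium (-0.24), 781 and 872 CPM in fibroblasts (-0.16), and 1112 and 1194 CPM in smooth muscle or pericytes (-0.10). It had 1487 CPM in KI and 1313 CPM in WT type 2 cells (0.18) and 1348 and 1292 CPM in type 1 cells (0.06). Summed, both Hsp90 genes had a log2 ratio of -0.23 in endothelium and 0.19 in type 2 cells.

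Of the 6 Hsp90 co-chaperones, Fkbp4, an immunophilin of steroid receptor complexes, was lower in KI in all 5 classes, and Chordc1, an Hsp90-binding protein, was higher in all 5. Fkbp4 had 38.8 CPM in KI and 55.5 CPM in WT endothelium (-0.52, -0.65 to -0.38) and 128 CPM in KI and 178 CPM in WT type 2 cells (-0.47, -0.59 to -0.35). Chordc1 had 54.2 CPM in KI and 44.7 CPM in WT endothelium (0.28, 0.15 to 0.41), 38.9 and 25.6 CPM in fibroblasts (0.60, 0.23 to 0.98) and 35.0 and 21.7 CPM in type 2 cells (0.69, 0.40 to 0.98). Its promoter window, printed above, holds 5 8-letter matches, 4 overlapping and 1 apart from them. St13 and Stip1, which link Hsp70 to Hsp90, had ratios of -0.49 to 0.03 and -0.57 to 0.34. Ahsa1, which stimulates the Hsp90 ATPase, had -0.36 to 0.32, and Cacybp -0.41 to 0.03.

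Small heat-shock proteins differed by cell type. Hspb1, the widely expressed Hsp27, was lower in KI in fibroblasts, with 1619 CPM against 2517 CPM in WT (-0.64, -0.68 to -0.59). It was also lower in smooth muscle or pericytes, with 1517 CPM in KI and 2599 CPM in WT (-0.78, -0.85 to -0.71). There the difference was in smooth muscle, with 3194 CPM in KI and 5970 CPM in WT (-0.90, -0.98 to -0.83), while pericytes had 468 CPM in KI and 408 CPM in WT (0.20, 0.01 to 0.39). The fibroblast value depends on which clusters make up the class: with clusters weighted alike in KI and WT it was -0.25. In endothelium Hspb1 had 1091 CPM in KI and 1096 CPM in WT (-0.01), in type 2 cells 1439 and 1303 CPM (0.14), and in type 1 cells 1174 and 942 CPM (0.32). Cryab, the alpha-B crystallin, had its highest level in type 1 cells in both libraries, with 1088 CPM in KI and 1312 CPM in WT (-0.27, -0.35 to -0.19). Hspb6, a small heat-shock protein of muscle, had its highest level in smooth muscle or pericytes, with 46.4 CPM in KI and 47.8 CPM in WT (-0.04). In fibroblasts Hspb6 had 11.7 CPM in KI and 6.46 CPM in WT (0.86, 0.13 to 1.62), from 45 UMIs in KI and 26 in WT. Hspb8, a partner of Bag3, had ratios of -0.68 to 0.23.

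**Figure D3:**
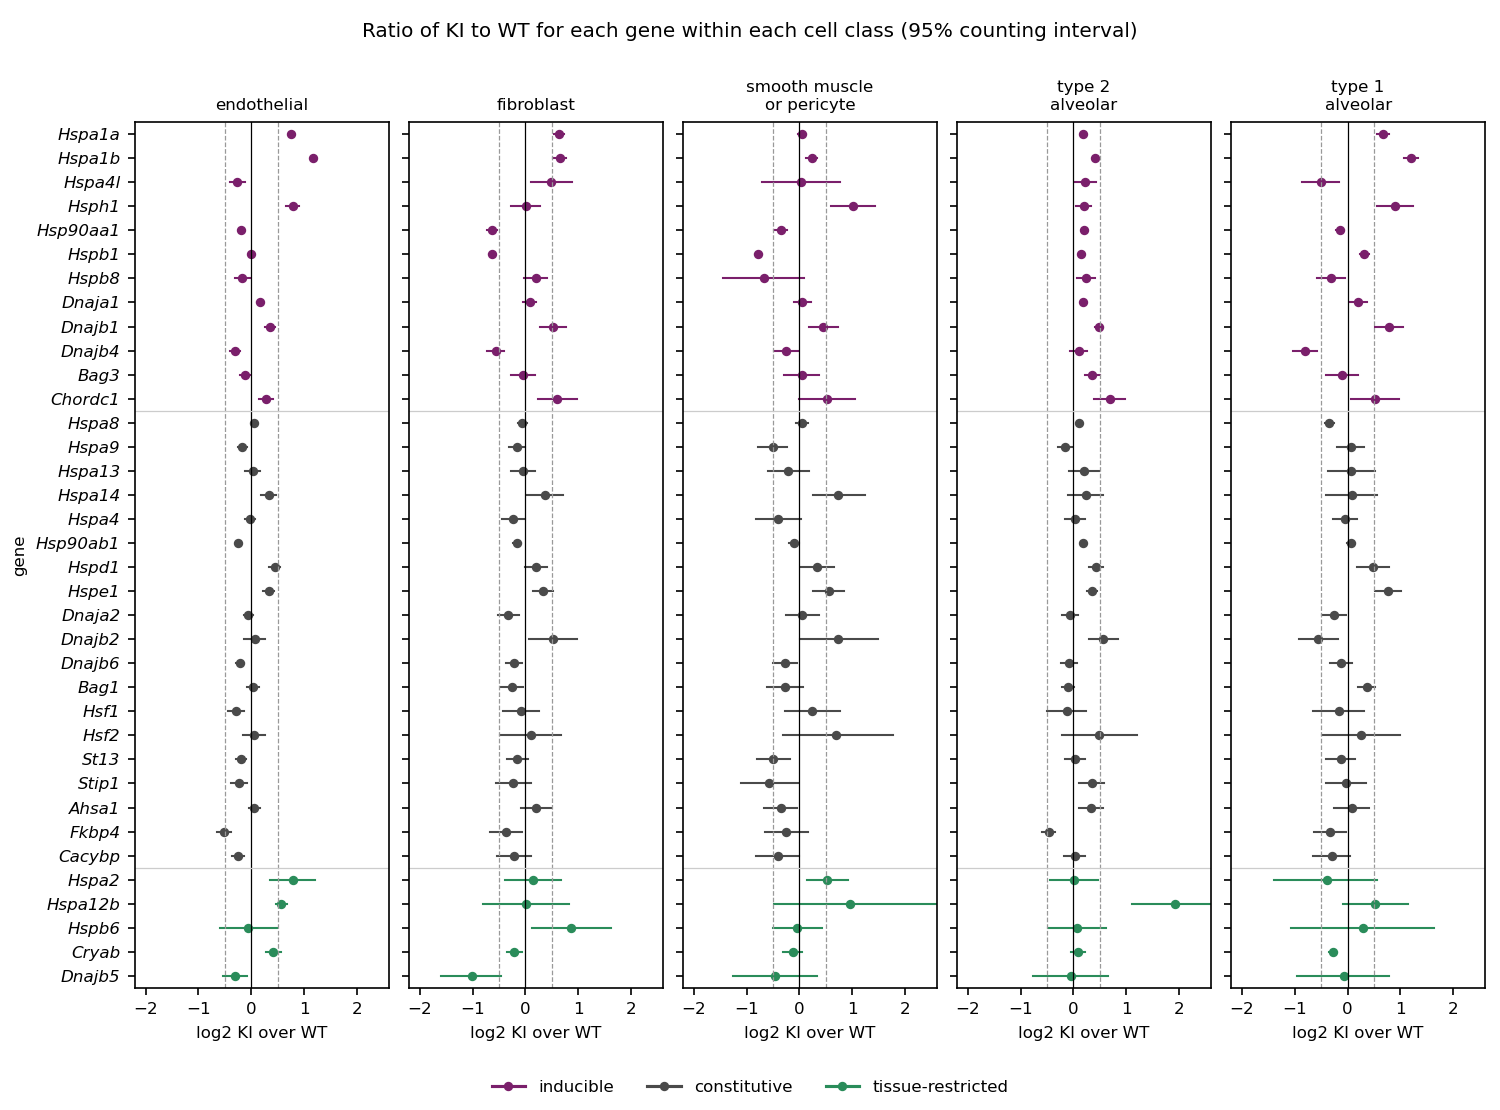
Log2 ratio of KI over WT for each of the 36 genes (rows) in the 5 cell classes (panels); points are ratios, lines 95% counting intervals, dashed lines mark -0.5 and 0.5, and colour gives the group of genes. Hspa1a and Hspa1b lie right of 0.5 in endothelium, fibroblasts and type 1 cells, while Hspb1 lies left of -0.5 in fibroblasts and in smooth muscle or pericytes. In type 1 cells both Hspa1 copies fall below 0 under the per-cell mean and under the stricter cell filter.

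The mitochondrial chaperonin genes had ratios above 0 in all 5 classes. Hspd1, which forms the folding chamber, had 85.3 CPM in KI and 62.7 CPM in WT endothelium (0.44, 0.34 to 0.55), and Hspe1, its lid, had 90.8 CPM in KI and 72.1 CPM in WT (0.33, 0.23 to 0.43). Together they had a log2 ratio of 0.38 in endothelium, 0.27 in fibroblasts, 0.45 in smooth muscle or pericytes, 0.38 in type 2 cells and 0.65 in type 1 cells. They lie side by side and their promoter windows overlap on chromosome 1.

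Of the J proteins, Dnajb1, the inducible Hsp40, was higher in KI in all 5 classes. It had 96.5 CPM in KI and 75.4 CPM in WT endothelium (0.35, 0.26 to 0.45), 83.0 and 57.9 CPM in fibroblasts (0.52, 0.27 to 0.77), and 495 and 354 CPM in type 2 cells (0.48, 0.41 to 0.56). Dnaja1 was also above 0 in all 5, at 0.05 to 0.20. Dnajb4 was lower in fibroblasts, with 134 CPM in KI and 197 CPM in WT (-0.56, -0.72 to -0.40), and in type 1 cells, with 112 CPM in KI and 196 CPM in WT (-0.81, -1.03 to -0.58). Dnajb5 had its highest level in endothelium among the 5 classes in KI (14.2 CPM in KI, 17.6 CPM in WT; -0.31) and in fibroblasts in WT (10.4 CPM in KI, 21.1 CPM in WT; -1.02, -1.60 to -0.46, from 40 UMIs in KI and 85 in WT). Dnajb2 had 25.6 CPM in KI and 17.9 CPM in WT fibroblasts (0.52, 0.06 to 0.98) and 37.3 and 25.2 CPM in type 2 cells (0.56, 0.29 to 0.84). Dnaja2 had ratios of -0.32 to 0.05, and Dnajb6, which keeps proteins from aggregating, of -0.27 to -0.09. The exchange factors Bag1 (-0.28 to 0.37) and Bag3 (-0.12 to 0.35) showed no common direction. The transcription factor Hsf1 had 32.5 CPM in KI and 39.8 CPM in WT endothelium (-0.29, -0.45 to -0.14), and Hsf2 had 21.6 and 20.9 CPM (0.05).

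**Figure D4:**
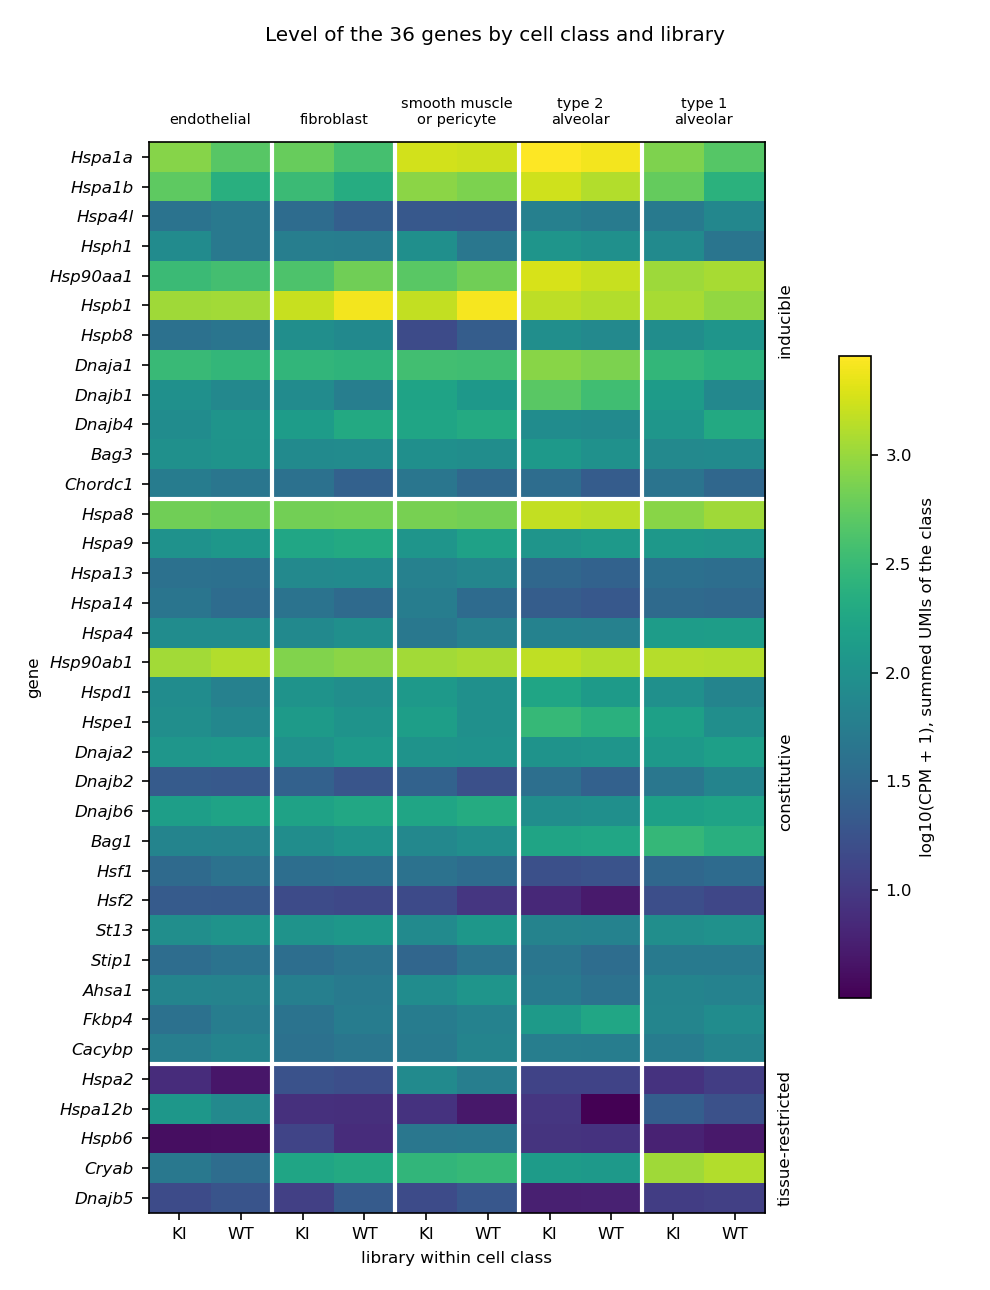
Level of each of the 36 genes as log10(CPM + 1) of the summed UMIs, for KI and WT side by side in the 5 cell classes; white lines separate classes and groups of genes. The columns of a pair resemble each other for most genes, and Hspa12b is brightest in endothelium and Cryab in type 1 cells in both libraries.

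Set against each other, the inducible genes as a sum were higher in KI in endothelium and the alveolar classes and lower in fibroblasts and smooth muscle or pericytes. In endothelium they made up 0.357% of UMIs in KI and 0.294% in WT, a log2 ratio of 0.28 (0.26 to 0.30), and the constitutive genes 0.288% in KI and 0.310% in WT, a ratio of -0.10 (-0.12 to -0.09). Without Hspa1a and Hspa1b the other 10 inducible genes were at 0.223% in each library, a ratio of 0.00. The net difference in the endothelial sum thus lay in these copies. Single genes among the other 10 still differed in both directions, with Hsph1 at 0.78 and Hsp90aa1 at -0.19. Without the cluster led by Tmem252 the inducible ratio was 0.12. By cluster the endothelial sum went both ways. Aerocyte clusters were at -0.12 (-0.15 to -0.09), -0.23 (-0.32 to -0.14) and 0.51 (0.43 to 0.60), and arterial cells at -0.63 (-0.80 to -0.46). General capillary cells were at 0.18, venous cells at 0.08, the cluster led by Tmem252 at 0.95 and the remaining clusters at 0.40 and 0.35. In fibroblasts the inducible genes made up 0.376% in KI and 0.455% in WT (-0.28, -0.31 to -0.24), and in smooth muscle or pericytes 0.564% in KI and 0.659% in WT (-0.23). The lower sum in the latter class was in smooth muscle (-0.52, -0.57 to -0.46), while pericytes were at 0.05 (-0.001 to 0.11). Alveolar fibroblasts were at -0.17, adventitial fibroblasts at 0.001 and the fibroblast clusters without a subtype name at -0.003 and -0.43. The fibroblast ratio was -0.18 with an unnamed cluster of fibroblast-like marker profile added and -0.063 when clusters were weighted alike in KI and WT. For type 2 cells the inducible share was 0.976% in KI and 0.827% in WT (0.24). In type 1 cells it was 0.441% in KI and 0.368% in WT (0.26). The type 1 ratio turned to -0.18 with the mean of per-cell CPM and -0.50 with the stricter cell filter. Constitutive sums had ratios of -0.10 in fibroblasts, -0.07 in smooth muscle or pericytes, 0.12 in type 2 cells and -0.04 in type 1 cells.

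Cell by cell the endothelial difference sat in the upper tail. Among cells with at least 2000 UMIs, the median endothelial cell gave 0.170% of its UMIs to inducible genes in KI and 0.175% in WT, whereas cells giving over 1% were 5.66% in KI and 2.83% in WT. In type 2 cells the median itself was higher, 0.592% in KI and 0.417% in WT, with 94 KI but 8 WT cells left out below that depth. Fibroblast medians were 0.204% in KI and 0.264% in WT, and type 1 medians 0.198% in KI and 0.279% in WT.

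**Figure D5:**
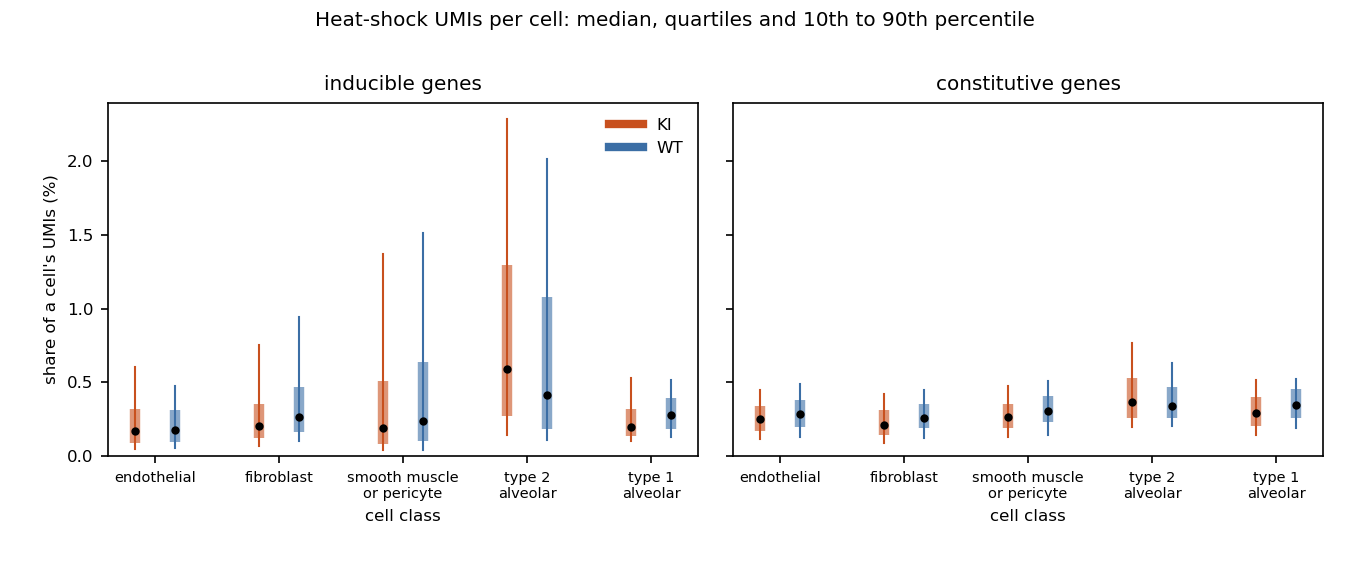
Share of a cell's UMIs (%) given to the inducible (left) and constitutive (right) genes in cells with at least 2000 UMIs of the KI and WT libraries; points are medians, thick bars quartiles and thin lines the 10th to 90th percentile. In endothelium the medians coincide (0.170% in KI, 0.175% in WT) while the KI line reaches higher, and in type 2 cells the KI median is above the WT median.

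Counted gene by gene, members past the limit lay on both sides in 4 of the 5 classes. In endothelium 5 of 36 genes were higher in KI by a log2 ratio over 0.5, against 12.4% of all 13742 genes with at least 20 UMIs, and 1 was lower, against 6.32%. Their median log2 ratio was 0.01, beside 0.06 over all genes. In fibroblasts 6 were higher (background 18.5%) and 4 lower (8.24%), with a median of -0.05 beside 0.10. In smooth muscle or pericytes 8 were higher (14.9%) and 4 lower (7.97%), with a median of -0.01 beside 0.05. In type 2 cells 3 were higher (15.4%) and 0 lower (4.39%), with a median of 0.19 beside 0.10, and in type 1 cells 7 were higher (15.3%) and 3 lower (9.63%), with a median of 0.01 beside 0.07. The shares are near the background in endothelium and are no result about the set. With the stricter cell filter, which left 217 KI and 181 WT type 2 cells and 133 KI and 259 WT type 1 cells, 12 of 36 were higher in type 2 cells (12.1% of all genes under that filter), and in type 1 cells 1 of 32 was higher (18.9%) and 7 lower (11.8%). Among genes with at least 500 UMIs, where counting error is smaller, 4 of 34 members were higher in endothelium (5.32%) and 1 lower (2.25%). The counts were 3 (5.16%) and 3 (6.26%) of 21 in fibroblasts, 0 (3.14%) and 1 (2.09%) of 11 in smooth muscle or pericytes, 0 (3.51%) and 0 (1.5%) of 26 in type 2 cells, and 3 (5.56%) and 1 (6.97%) of 15 in type 1 cells. Over all kept cells 2 of 36, Hspa1b and Hspa12b, were higher and 0 lower at either minimum (backgrounds of 12% and 7.13% at 20 UMIs, and 5.06% and 2.71% at 500 UMIs). By sign, 11 of 36 genes were above 0 in all 5 classes, against 18.6% of the 9472 genes with at least 20 UMIs in each, and 3 (Dnajb5, Dnajb6 and Fkbp4) were below 0 in all 5, against 6.88%. Of the 11, Hspa1a, Hspa1b, Hsph1, Dnaja1, Dnajb1 and Chordc1 are inducible, Hspd1, Hspe1, Hspa14 and Hsf2 constitutive, and Hspa12b is the endothelial Hsp70 relative.

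Counts in the subtypes, at 20 UMIs, gave no common direction. Higher and lower members were 4 (10%) and 2 (7.51%) of 36 in aerocytes, 4 (13.5%) and 3 (7.7%) of 36 in general capillary cells, and 6 (15.8%) and 3 (11%) of 35 in venous cells. In arterial cells, with 105 KI and 140 WT cells, 1 (18%) of 30 was higher and 13 (14.6%) were lower, with a median of -0.37 beside 0.01 over all genes. Under the stricter filter the arterial counts were 3 higher (16.3%) and 2 lower (8.14%) of 34, over 312 KI and 420 WT cells, and the lower count was 8 (10.1%) without doublets and 9 (10.6%) with the genes among the variable genes. Adventitial fibroblasts had 5 (22.3%) and 6 (11.2%) of 35, and alveolar fibroblasts 4 (16.5%) and 3 (9.78%) of 35. Pericytes had 7 (13.5%) and 5 (10.6%) of 33, and smooth muscle 6 (21.5%) and 5 (10.2%) of 34.

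Lists of neighbouring systems give the setting. Of 14 endoplasmic reticulum chaperones, which fold secreted proteins, none was higher and 4 were lower in KI endothelium (12.4% and 6.32% of all genes), and their sum was 0.291% of UMIs in KI and 0.381% in WT (-0.39, -0.41 to -0.37). Hspa5 had 478 CPM in KI and 709 CPM in WT (-0.57), Calr 361 and 535 CPM (-0.57), and Pdia6 210 and 297 CPM (-0.50). Canx (0.02), Dnajb9 (-0.10) and Pdia4 (-0.17) were the highest. The sum was also below 0 in fibroblasts (-0.30), smooth muscle or pericytes (-0.40) and type 2 cells (-0.15), and was 0.02 in type 1 cells. Of the 22 immediate-early genes 7 were higher and 1 lower in KI endothelium (12.4% and 6.32% of all genes), with a sum of 1.23% in KI and 1.09% in WT (0.18). Fosb (0.65), Zfp36 (0.59) and Atf3 (0.56) were highest and Klf6 (-0.60), Klf4 (-0.26) and Socs3 (-0.03) lowest. Their sum was at 0.20 in type 2 cells and -0.24 in type 1 cells. Whether isolation had a part in the Hspa1 values was not tested. Of 38 other chaperone system genes with at least 20 UMIs, 3 were higher in KI endothelium, against 12.4% of all genes. Dnajb14 (0.23), Sgta (0.19) and Cct4 (0.15) were highest among those with at least 50 CPM, and Tomm34 (-0.32) and Bag5 (-0.09) were among the lowest.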

How the data were processed

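Single-cell RNA was measured in 2 libraries of sorted mouse lung cells, 1 per group. The deposited files hold raw UMI counts per gene and barcode, made by the authors with Cell Ranger 2.0 on mm10 and with Seurat 2.3.4 and R 3.5.3 listed, per the submitters' processing notes. Barcodes with at least 200 genes and at most 10% mitochondrial UMIs were kept. With scanpy 1.11.5 on Python 3.11.15, cells were clustered on 2000 variable genes per library without the 36 genes, using 30 principal components, 15 neighbours and leidenalg 0.10.2 at resolution 1, and clusters were named from marker genes at a score over 0.5 and at least 3 detected markers. Doublets were kept: the caller's automatic threshold marked 0 KI and 7 WT barcodes and so had not worked, and an alternative left out the highest scores, 665 KI and 877 WT barcodes. Class sums of UMIs in each library were scaled to CPM. Intervals (scipy 1.17.1) are exact: Poisson for levels, conditional binomial for ratios, Clopper-Pearson for shares. They cover counting error only, and with 1 library per group the difference has no replicate check.

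A gene counted as higher or lower past a log2 ratio of 0.5 with at least 20 UMIs. Values were given in full for genes past 0.5 whose interval leaves out 0 in the 3 classes with most cells, for Hspa1a, Hspa1b, Hspa8, Hsp90aa1 and Hsp90ab1 everywhere, for tissue-restricted genes where they are highest, and for the 3 highest and 3 lowest genes with at least 50 CPM of each further list; other values were chosen after they were seen. By number of cells, endothelial, fibroblast and type 2 alveolar were those classes when the libraries were added. The genes and lists were chosen with earlier results of these data known. Cct6a was not found in the count tables under that symbol. One gene of the other chaperone system list, and the list's sum and count of lower genes, which include it, are not reported here.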

Additional observations from a re-analysis of the deposited data

Results flagged for a closer look

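The summed inducible genes differed between classes: the log2 ratio of KI over WT was 0.28 in endothelium and -0.28 in fibroblasts, 0.556 apart, with counting intervals that do not overlap and lie on opposite sides of 0. The size of this contrast depends on the processing: the endothelial ratio was 0.0036 without Hspa1a and Hspa1b, and the fibroblast ratio -0.063 with the same cluster weights and -0.051 with no limit on genes or mitochondrial share. Dnajb2, a J protein, had a ratio of 0.73 in smooth muscle or pericytes and -0.55 in type 1 alveolar cells, 1.28 apart, from 51 KI and 24 WT UMIs in the first class and 91 KI and 196 WT UMIs in the other. With 1 library per group neither difference was tested.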

How the results depend on the processing

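No paired analysis was possible because each group has 1 library, and leaving out a replicate was not possible for the same reason. Depth limits the low genes: ratios resting on fewer than about 50 UMIs per library, such as those of Dnajb5 in smooth muscle or pericytes and Hspb6 in type 1 cells, have intervals wider than the limit of 0.5. The causes of the shifts below were not tested. The summed Hspa1a and Hspa1b ratio in endothelium kept its sign in 10 of 10 alternatives (0.84 to 0.99), and in fibroblasts in 10 of 10 (0.46 to 0.70).

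The inducible sum in endothelium (0.28) was 0.22 with median-of-ratios factors, 0.17 with at least 500 genes and at most 5% mitochondrial UMIs (the stricter filter), 0.31 with no limit on either, 0.33 without doublets, 0.32 with the same cluster weights and 0.34 without Hsp90aa1. Alternatives chosen after seeing the data gave 0.0036 without Hspa1a and Hspa1b and 0.12 without cluster 4, the cluster led by Tmem252. In fibroblasts (-0.28) it was -0.33 with the mean of per-cell CPM, -0.37 with median-of-ratios factors, -0.13 with the stricter filter, -0.051 with no limit, -0.17 at resolution 0.5, -0.14 with the 36 genes among the variable genes, -0.063 with the same cluster weights and -0.22 without Hsp90aa1, and, chosen after seeing the data, -0.48 without Hspa1a and Hspa1b and -0.18 with cluster 7 added. In smooth muscle or pericytes (-0.23) it was -0.034 with the per-cell mean, -0.15 without doublets, -0.17 at resolution 0.5 and, chosen after seeing the data, -0.47 without Hspa1a and Hspa1b. In type 2 cells (0.24) it was 0.19 with the per-cell mean (which moved the median of all genes by 0.10), 0.15 with median-of-ratios factors, 0.46 with the stricter filter, 0.26 with no limit, 0.28 without doublets, and 0.26 at resolution 0.5 and with the same cluster weights; chosen after seeing the data, it was 0.21 without Hspa1a and Hspa1b and 0.26 without cluster 23. In type 1 cells (0.26) it was -0.18 with the per-cell mean, 0.18 with median-of-ratios factors, -0.50 with the stricter filter, 0.21 with no limit, -0.017 without doublets, 0.22 at resolution 0.5 and with the genes among the variable genes, 0.42 without Hsp90aa1 and, chosen after seeing the data, 0.063 without Hspa1a and Hspa1b.

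The constitutive sum in endothelium (-0.10) was -0.15 with the per-cell mean and with the stricter filter, -0.17 with median-of-ratios factors, -0.048 without Hspa8 and Hsp90ab1 and, chosen after seeing the data, -0.13 without cluster 4. In fibroblasts (-0.10) it was -0.19 with median-of-ratios factors and -0.14 without doublets. In type 2 cells (0.12) it was 0.071 with the per-cell mean, 0.068 without Hspa8 and Hsp90ab1, 0.027 with median-of-ratios factors, 0.20 with the stricter filter and 0.18 without doublets. In type 1 cells (-0.04) it was -0.12 with median-of-ratios factors, -0.31 with the stricter filter, -0.14 without doublets and 0.060 without Hspa8 and Hsp90ab1.

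Counts of genes differed as follows. In endothelium (5 higher, 1 lower) the lower count was 2 with the per-cell mean and 0 with no limit; at a log2 ratio of 1 the counts were 1 and 0. In fibroblasts (6, 4) the higher count was 2 with the per-cell mean and 3 with at least 500 UMIs, chosen after seeing the data, and the lower count 2 with the same cluster weights; at a ratio of 1 the counts were 0 and 1. In smooth muscle or pericytes (8, 4) the higher count was 4 with the stricter filter and at resolution 0.5, and the lower count 1 with no limit and 2 at resolution 0.5; the counts were 0 and 1 with at least 500 UMIs and 1 and 0 at a ratio of 1. In type 2 cells (3, 0) the higher count was 5 with the per-cell mean, 12 with the stricter filter, 0 with at least 500 UMIs and 1 at a ratio of 1, and the lower count 1 with the per-cell mean, with median-of-ratios factors and with no limit. In type 1 cells (7, 3) the counts were 2 and 5 with the per-cell mean, 1 and 7 with the stricter filter, 3 and 1 with at least 500 UMIs and 1 and 0 at a ratio of 1, and the lower count 5 without doublets.

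Of 29 ratios past 0.5, 4 changed sign, in 9 of 261 values under alternatives, and of 36 within 0.5, 13 did, in 25 of 346 values. The smaller ones include Hspa8 in endothelium (-0.0032 to 0.075), fibroblasts (-0.15 to 0.017) and smooth muscle or pericytes (-0.11 to 0.26), Hsp90ab1 in type 1 cells (-0.30 to 0.082), Hspb6 in smooth muscle or pericytes (-0.074 to 0.32) and the Hspa1 copies in pericytes (-0.11 to 0.050). Of those past 0.5, in type 1 cells the Hspa1 copies summed (0.87) were at -0.28 with the per-cell mean and -0.98 with the stricter filter, Hspa1a (0.67) at -0.35, -1.21 and, without doublets, -0.051, and Hspa1b (1.20) at -0.16 with the per-cell mean and -0.60 with the stricter filter. In arterial cells the copies (-1.03) were at 1.38 with the stricter filter and 0.23 with the genes among the variable genes.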
